A study of Mus musculus with 24 samples.

Results

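A set of 8 genes of the furin and TGF-beta pathway was followed across all 24 arrays of the study, out of 20028 genes that the array design names: Furin, Tgfb1, Tgfbr1, Tgfbr2, Smad3, Smad7, Ski and Skil. They are a list named by pathway and drawn up with earlier results of these data known, and each of the 8 had at least 1 probe. The study measured the expression of mouse T helper (Th) cells on dual-colour Agilent arrays, with in vitro differentiated Th1 or Th2 cells labelled with Cy3 and, on every array, Cy5-labelled RNA of naive T cells (CD4+CD62L+CD25-CD44lo) from spleens and lymph nodes. All cells, the naive reference included, came from female C57BL/6 mice. The Th cells were either unstimulated or reactivated, and were kept with the DMSO control, with JQ1 (an inhibitor of BET bromodomain proteins) at 50 or 500 nM, or with Flavopiridol (an inhibitor of cyclin-dependent kinases, including the P-TEFb kinase that releases RNA polymerase II into elongation) at 1 or 10 µM. Th1 cells filled 14 arrays, with DMSO at 6 and 24 hr, both JQ1 doses at 6 hr, 500 nM JQ1 at 24 hr and both Flavopiridol doses at 6 hr. Th2 cells filled 10 arrays, with DMSO, both JQ1 doses and both Flavopiridol doses, and the titles of the 2 Th2 DMSO arrays give 24 hr where their source names give 6 hr. Each condition had 1 array and no replicate, so every p-value below measures the spread of an effect between cell contexts or pairs of arrays and not between cultures or animals. Mouse ages, the number of mice behind an array and the reagent used for reactivation are not given in the sources used here.

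TGF-beta1 is a cytokine made as a precursor that proprotein convertases, furin foremost, cut before the growth factor can be released from its latent complex. The active ligand binds TGFBR2, which recruits and phosphorylates TGFBR1. TGFBR1 in turn phosphorylates SMAD2 and SMAD3, which enter the nucleus with SMAD4. SMAD7 blocks the activated receptor, and the corepressors SKI and SKIL hold SMAD-bound genes silent. In T cells TGF-beta restrains Th1 and Th2 differentiation and maintains tolerance, and furin made by T cells is known to be needed for that tolerance.

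The sequences upstream of the annotated starts are shown for the genes whose values differed most between conditions, to place beside those values which short elements lie there. They are RefSeq windows of the 250 bases before a start, in GRCm38.p6, printed 5′ to 3′ on the gene's own strand. Capitals mark each match, on either strand, to the GC box GGGCGG, the AP-1 site TGANTCA, the SMAD element CAGAC, the TATA box TATAAA or the T-box core AGGTGT. Windows of 6 of the 8 genes were scored, 8 windows in all. Smad7 and Skil are named without sequence and were not scored.
Furin, chr7:80405437-80405686, minus strand: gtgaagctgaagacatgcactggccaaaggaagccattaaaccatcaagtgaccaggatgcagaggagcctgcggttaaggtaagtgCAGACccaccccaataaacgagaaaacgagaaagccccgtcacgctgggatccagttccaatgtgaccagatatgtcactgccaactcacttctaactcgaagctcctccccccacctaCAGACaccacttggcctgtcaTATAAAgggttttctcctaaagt
Furin, chr7:80402813-80403062, minus strand: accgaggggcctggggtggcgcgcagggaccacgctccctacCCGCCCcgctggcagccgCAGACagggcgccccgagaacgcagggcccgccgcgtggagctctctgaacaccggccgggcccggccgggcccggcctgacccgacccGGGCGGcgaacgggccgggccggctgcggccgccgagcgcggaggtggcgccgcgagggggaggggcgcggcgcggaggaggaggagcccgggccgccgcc
Tgfb1, chr7:25686752-25687001, plus strand: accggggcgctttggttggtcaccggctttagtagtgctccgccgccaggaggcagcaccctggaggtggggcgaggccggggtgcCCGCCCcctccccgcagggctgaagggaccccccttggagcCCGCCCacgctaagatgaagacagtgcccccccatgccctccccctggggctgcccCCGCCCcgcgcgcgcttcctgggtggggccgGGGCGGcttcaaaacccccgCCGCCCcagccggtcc
Tgfbr2, chr9:116175364-116175613, minus strand: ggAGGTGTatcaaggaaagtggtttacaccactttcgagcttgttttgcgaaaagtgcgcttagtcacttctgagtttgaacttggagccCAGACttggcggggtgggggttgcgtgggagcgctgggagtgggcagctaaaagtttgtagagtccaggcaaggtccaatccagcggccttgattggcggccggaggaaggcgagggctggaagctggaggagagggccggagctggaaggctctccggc
Smad3, chr9:63757995-63758244, minus strand: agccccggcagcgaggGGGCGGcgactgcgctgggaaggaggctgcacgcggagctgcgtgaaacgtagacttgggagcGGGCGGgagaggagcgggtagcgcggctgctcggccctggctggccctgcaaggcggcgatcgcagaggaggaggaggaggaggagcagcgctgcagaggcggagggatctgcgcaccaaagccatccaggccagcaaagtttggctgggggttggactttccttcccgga
The 2 Furin starts differ in kind. The window at chr7:80405437-80405686 was 50.4% G or C, with 1 TATA box 23 bases before the start and 2 SMAD elements, the nearer 44 bases before it. The other Furin window was 83.2% G or C and held 2 GC boxes and 1 SMAD element. The Tgfb1 window held 5 GC boxes and the Smad3 window 2, while the Tgfbr2 window held 1 SMAD element and 1 T-box core and no GC box. The AP-1 site was in none of the 8 windows, and no match overlapped another. Among 32851 windows of the same length, 32.7% held a GC box, 42.2% a SMAD element, 12.4% a TATA box, 11.8% a T-box core and 6.7% an AP-1 site. The short SMAD element is thus common, and a match describes letters only.

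The values are log2 ratios of sample over naive cells after background correction and intensity-dependent (loess) normalization within each array. Loess sets the ratio of most genes on an array near 0, so that each value is relative to the bulk of genes on its array. The dyes were not swapped, so a ratio against naive cells also holds dye bias and was given no test, whereas a difference between arrays does not hold it. Each array read 55681 probes, of which 35.45 to 52.04% were well above background in Cy3 and 48.11 to 53.79% in Cy5. The Flavopiridol arrays were the lowest in Cy3, at 35.45 to 41.53%. The spike-in control RNA, which should lie at an equal ratio on each array, spread from -0.83 to 0.99 on the log2 scale after loess. Results can therefore depend on the centring, and the main such cases are given below. Cd3e and Cd4 were well above background on all 24 arrays. In unstimulated DMSO cells the log2 ratio of Tbx21, the Th1 regulator, was 5.41 in Th1 (6 hr) and -0.02 in Th2 cells, and that of Gata3, the Th2 regulator, was -0.52 and 1.95. In the reactivated DMSO cells Tbx21 was at 6.11 in Th1 (6 hr) and 4.64 in Th2 cells, and Gata3 at -0.33 and 2.64. There the Th1 cytokine gene Ifng was at 8.59 and 6.20, and the Th2 cytokine gene Il4 at 3.07 and 8.02. Markers listed for other cells were above background on part of the arrays. The myeloid genes Csf1r and Itgam were above it on 24 arrays, Cd14 on 3 and Lyz2 on 0, and the B cell genes Ms4a1, Cd79a and Pax5 on 20, 14 and 5. The CD8 T and NK cell genes Cd8b1, Cd8a, Ncr1 and Klrb1c were above it on 21, 13, 1 and 0 arrays, the platelet genes Itga2b, Pf4 and Gp9 on 10, 2 and 1, and the regulatory T cell genes Foxp3 and Ikzf2 on 17 and 13. The summed log2 Cy3 level of those 3 B cell markers was 8.82 to 10.82 on DMSO, 8.23 to 10.62 on JQ1 and 7.95 to 9.37 on Flavopiridol arrays. That of the 4 myeloid markers was 13.51 to 14.23, 13.39 to 14.18 and 12.15 to 13.73, and that of the 4 CD8 T and NK cell markers 8.28 to 9.22, 8.19 to 8.68 and 8.65 to 9.61. The part of these markers in the results was not tested. In such bulk samples fewer cells of a type and less RNA per cell cannot be told apart.

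Furin and Tgfb1 stood above naive cells on most arrays, and both receptors, the SMADs and the corepressors mostly below. Over the 6 DMSO arrays the log2 ratio of Furin was 3.16 ± 1.86 (SD, n = 6 arrays of different conditions) and that of Tgfb1 was 1.25 ± 0.71. Smad3 was at -0.06 ± 0.42, Tgfbr1 at -0.38 ± 0.20, Skil at -0.65 ± 0.26 and Ski at -0.98 ± 0.23. The lowest were Tgfbr2 at -1.67 ± 0.54 and Smad7 at -2.41 ± 0.60. Neighbours in this order differed by less than the sum of their SDs except Tgfb1 and Smad3. Those SDs hold differences between conditions. Array by array, Tgfbr2 lay below Ski on each of the 6 DMSO arrays. Smad7 lay below Tgfbr2 on each except the reactivated Th1 array of 24 hr, where both were at -2.44. Furin and Tgfb1, Smad3 and Tgfbr1, Tgfbr1 and Skil, and Skil and Ski changed places on at least 1 array, so their order was not resolved. Tgfb1 was above naive cells on all 24 arrays, with 0.48 to 2.03 on the DMSO arrays, 0.80 to 2.80 on the JQ1 arrays and 0.11 to 1.35 on the Flavopiridol arrays. That number was 15 with median centring and 20 with the spike-in shift. Tgfbr2 and Smad7 were below naive cells on all 24, and on all 24 under both of these settings. These are ratios of each gene to itself in naive cells and set no gene's abundance against another's. For Furin the arrays fell into 4 ranges in order: reactivated DMSO and JQ1 arrays of both cell types (3.36 to 5.12), unstimulated Th1 arrays and all Th1 Flavopiridol arrays (1.25 to 3.16), unstimulated Th2 arrays with DMSO or JQ1 (-0.23 to -0.02), and Th2 Flavopiridol arrays (-1.59 to -1.0). The Cy5 signal of the shared reference differed between arrays with an SD of 0.185 (log2, median over 276 pairs of arrays), and no condition had a replicate to set an error on the order. The place of the genes near 0 depends on the centring, since with the spike-in RNA set to 0 the DMSO mean of Smad3 was 0.51 and that of Tgfbr1 was 0.22.

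**Figure D1:**
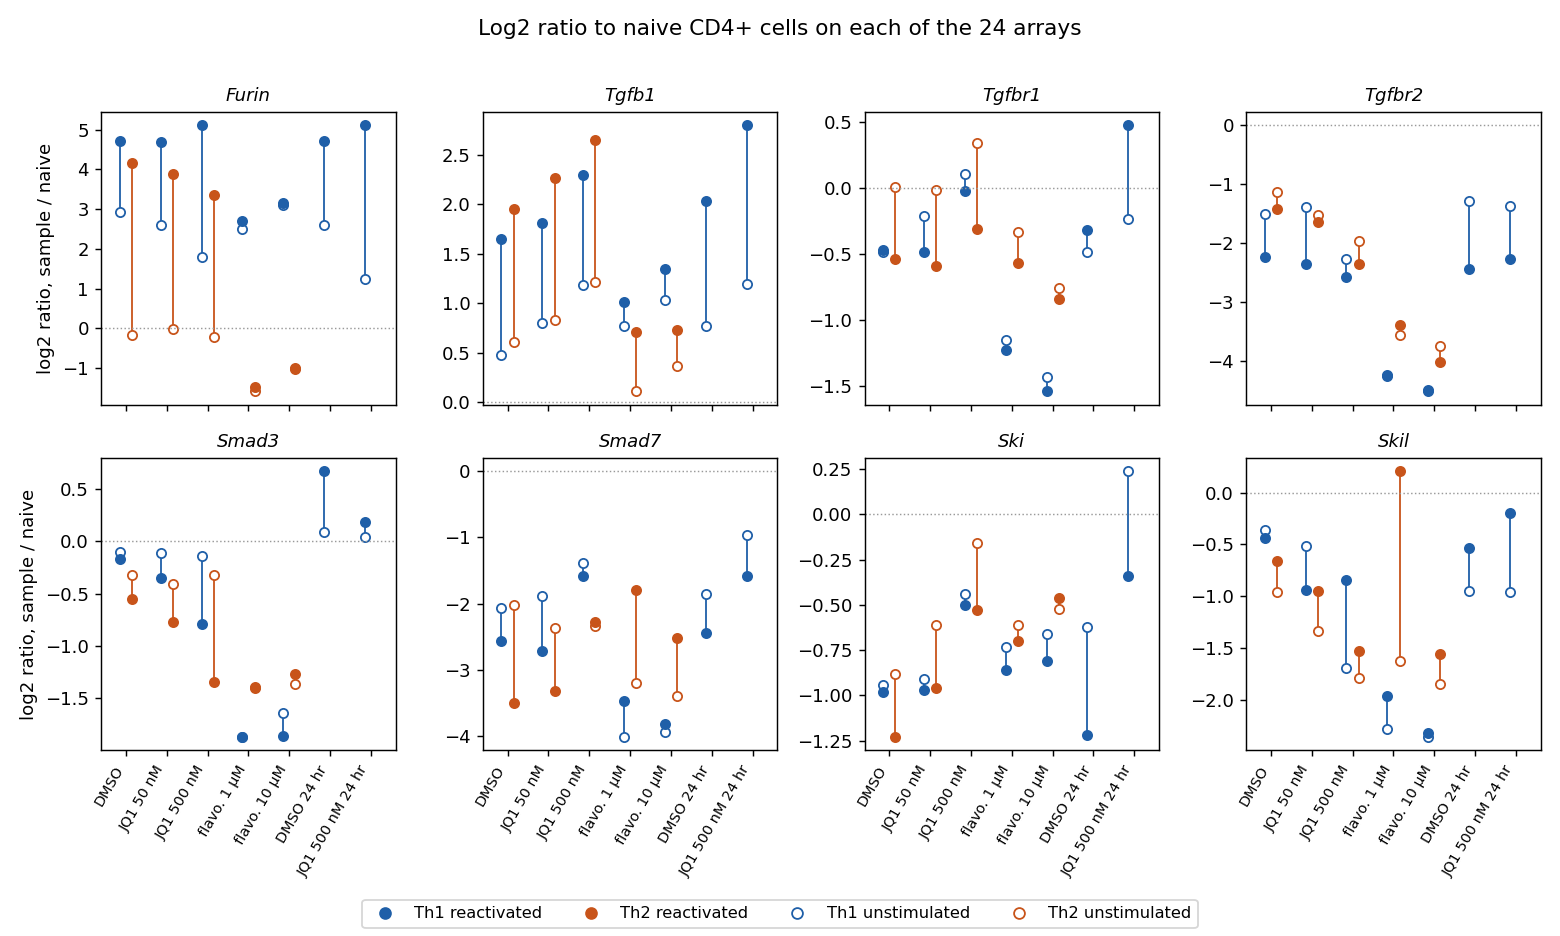
Log2 ratio over naive cells (y axis) of each gene on each of the 24 arrays, 1 panel per gene, with points for single arrays by treatment, cell type and state. Furin spans from -1.59 on an unstimulated Th2 Flavopiridol array to 5.12 on the reactivated Th1 arrays with 500 nM JQ1, whereas the 6 DMSO arrays of Tgfbr1 lie between -0.54 and 0.01.

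The probes limit some of these values. Furin, Tgfb1, Smad7 and Ski each had 1 probe, and Tgfbr1, Tgfbr2, Smad3 and Skil had 2, of which the brighter gives the values here. The second Tgfbr2 probe was above background on all 24 arrays and followed the first loosely, with Pearson r = 0.45 over the 24 arrays, which share the reference RNA. For Tgfbr1 the second probe was above background on 10 arrays (r = 0.48), for Smad3 on 16 (r = 0.85) and for Skil on 23 (r = 0.69). Ski was the dimmest gene, with Cy3 well above background on 16 of 24 arrays and on none of the 8 Flavopiridol arrays. Each of the other 7 genes was above background on all 24 arrays, except Smad7 on 23.

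The first comparison asked which of the genes moved on reactivation without drug. Furin and Tgfb1 rose and Tgfbr2 and Smad7 fell. Furin was at 2.93 unstimulated and 4.73 reactivated in Th1 cells at 6 hr, at 2.61 and 4.73 in Th1 cells at 24 hr, and at -0.17 and 4.16 in Th2 cells. All 3 reactivated arrays lay above all 3 unstimulated ones, and the step was largest in Th2 cells, which started level with naive cells. The fitted difference was 2.75 on the log2 scale (SE 0.46, 95% interval 1.62 to 3.87, n = 3 pairs), a 6.73-fold rise, with a limma adjusted p (Benjamini-Hochberg over all genes tested) of 0.00378. Without either Th2 DMSO array the difference was 1.96 and passed the test, so the size of the fold depends on the Th2 pair. Tgfb1, the ligand precursor that furin cuts, moved from 0.48 to 1.65, from 0.77 to 2.03 and from 0.61 to 1.95 in the same 3 pairs. Its groups did not overlap either, and the rise of 1.26 (SE 0.12) was 2.39-fold, with a limma adjusted p of 0.00056.

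On the receiving side of the pathway Tgfbr2 and Smad7 fell. Tgfbr2, the ligand-binding receptor, went from -1.51 to -2.24 and from -1.29 to -2.44 in the Th1 pairs and from -1.14 to -1.42 in Th2 cells. The inhibitor Smad7 went from -2.07 to -2.56, from -1.85 to -2.44 and from -2.02 to -3.50, the last on the reactivated Th2 array. Both fell in all 3 pairs, and the reactivated and unstimulated arrays did not overlap for Smad7 but did for Tgfbr2. Tgfbr2 fell by 0.72 (SE 0.18, limma adjusted p = 0.0178) and Smad7 by 0.85 (SE 0.21, limma adjusted p = 0.0161). The remaining 4 genes did not pass the test. The 95% interval of the difference ran from -0.54 to 0.28 for Tgfbr1, from -0.36 to 0.54 for Smad3, from -0.69 to 0.03 for Ski and from -0.14 to 0.57 for Skil. Skil was called higher with the mean over its probes (0.44, adjusted p = 0.045) and with the spike-in shift (0.50, adjusted p = 0.0384), and its second probe gave 0.67. Ski was called lower with no background correction (-0.54, adjusted p = 0.0448), with median centring (-0.43, 0.0482) and in the scanner software's ratio (-0.96, 0.0326). Thus 4 of 8 genes were called, against a background of 50.9% of all genes tested, with 2 higher where 22.1% of genes were called higher and 2 lower where 28.8% were. The Tgfbr2 call was lost with each spike-in centring (adjusted p = 0.128 and 0.134), with the mean over its probes (fell by 0.36, adjusted p = 0.14) and without any 1 of the 4 Th1 arrays, and its second probe gave 0.00. Of the markers of other cells tested, 1 of 4 of B cells was higher on reactivation, and 0 of 2 of myeloid cells and 0 of 2 of CD8 T and NK cells were called. Spike-in centring moved the median of all genes from -0.05 to 0.20 and the share of calls that were higher from 43.4% to 63.5%.

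Of 77 other genes listed for the pathway, 76 had a probe and 62 could be tested here, of which 16 were higher and 18 lower (median difference 0.00, against -0.05 over all genes tested). These counts lie near the shares over all genes, of which 22.1% were called higher and 28.8% lower. The proprotein convertases had 4 higher and 1 lower of 6, among them Pcsk6 at 0.92 and Pcsk7 at -0.53. The ligands and latency genes had 4 higher and 2 lower of 9, led by Inhba, the activin A subunit, at 3.78 (SE 0.16, limma adjusted p = 0.000129) and Itgav, the integrin alpha V chain that takes part in releasing latent TGF-beta, at 2.87 (limma adjusted p = 0.000459). Inhba was above background on 2 of the 3 unstimulated arrays. Its mean log2 Cy3 was 14.57 reactivated and 6.50 unstimulated, a larger step than the fitted one. Itgav had no value on at least 1 reactivated array. The other receptors had 1 higher and 5 lower of 9, with Tgfbr3, the betaglycan coreceptor, at -1.79 and Acvr2b, an activin receptor, at -1.53. The target genes had 3 higher and 0 lower of 8. The other SMADs had 0 higher and 2 lower of 4, Smad4 at -0.57 and Smad5 at -0.54. The regulators had 2 higher and 5 lower of 18, with the ubiquitin ligase Smurf2 at -1.07, and the corepressors and coactivators 2 higher and 3 lower of 8.

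The 12 pairs of reactivated and unstimulated arrays, each pair on 1 slide, fell into separate ranges for Furin by treatment. The reactivated minus unstimulated difference was 1.80, 2.12 and 4.33 with DMSO, 2.07 (Th1) and 3.92 (Th2) with 50 nM JQ1, and 3.31 (Th1), 3.87 (Th1, 24 hr) and 3.60 (Th2) with 500 nM JQ1. In the 4 Flavopiridol pairs it ran from -0.02 to 0.22. The 8 DMSO and JQ1 pairs thus lay wholly above the 4 Flavopiridol pairs, and the reactivated Furin level itself was 2.71 and 3.16 in Th1 and -1.48 and -1.02 in Th2 cells with Flavopiridol. Tgfb1 differences ran from 1.01 to 1.61 in the 8 DMSO and JQ1 pairs and from 0.24 to 0.61 in the 4 Flavopiridol pairs, which were higher in 4 of 4 but did not reach the other range. Smad7 was lower in 7 of the 8 DMSO and JQ1 pairs, from -1.47 to 0.05, and higher in all 4 Flavopiridol pairs, from 0.12 to 1.40, in 1 of which the unstimulated array was not above background. Tgfbr2 was lower in all 8 DMSO and JQ1 pairs, from -1.14 to -0.13, and lay between -0.29 and 0.18 in the Flavopiridol pairs. Skil, at 0.21, stood apart on the reactivated Th2 array with 1 µM Flavopiridol, where the 7 other Flavopiridol arrays ran no higher than -1.56.

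**Figure D2:**
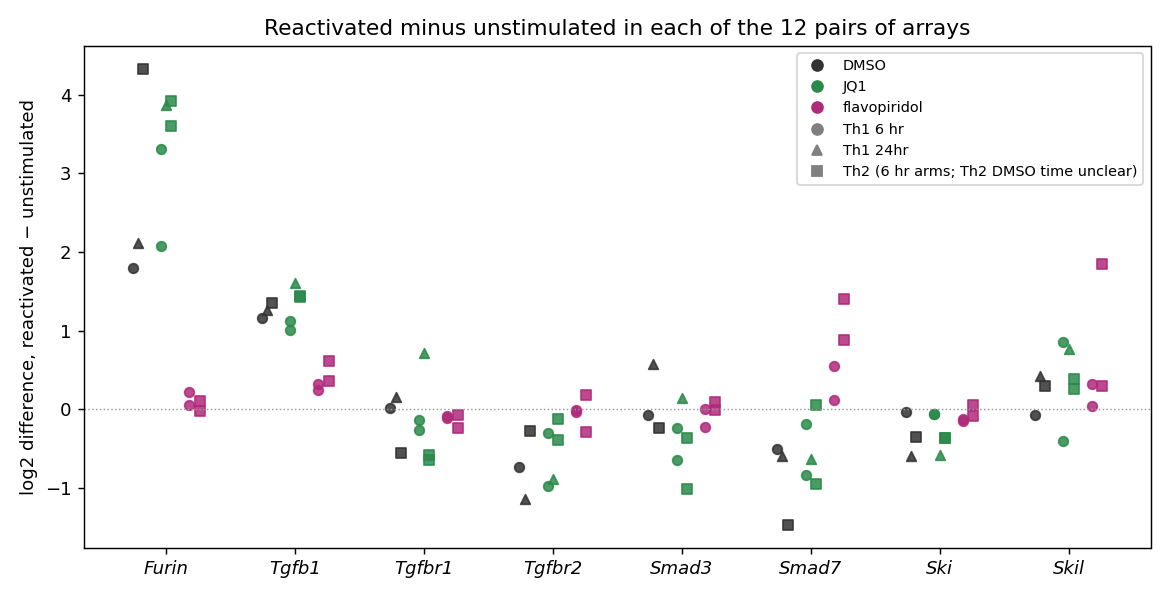
Reactivated minus unstimulated log2 ratio (y axis) of each gene in the 12 pairs of arrays, 1 point per pair, by treatment and cell type. For Furin the 8 DMSO and JQ1 pairs lie between 1.80 and 4.33 and the 4 Flavopiridol pairs between -0.02 and 0.22.

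Whether Flavopiridol changed the reactivation step was tested as the difference of the 10 µM effect between reactivated and unstimulated cells. For Furin the drug difference was 0.18 (Th1) and -0.83 (Th2) in unstimulated cells and -1.57 and -5.17 in reactivated cells. The fitted difference between the states was -3.05 (SE 1.15, 95% interval -5.74 to -0.35, limma adjusted p = 0.122), which did not pass the threshold. It passed with the slide as a random block (adjusted p = 0.0134) and without the reactivated Th1 DMSO array of 6 hr (-4.85, adjusted p = 0.00149). Of the 8 genes 0 were called by limma, and 1 had an unadjusted p under 0.05, where 15.8% of all genes were called. The estimate for Tgfb1 was -0.91 (95% interval -1.83 to 0.01) and that for Smad7 was 1.49 (-0.36 to 3.33). Tgfb1 passed with the slide as a random block (adjusted p = 0.0225), and without the reactivated Th1 DMSO array of 6 hr both passed, Tgfb1 at -1.30 (0.0476) and Smad7 at 2.69 (0.00372). Among the other pathway genes 3 were called higher and 4 lower of 58, and all 3 called higher were receptors: Acvr2b (2.02), Tgfbr3 (1.34) and Acvrl1 (1.25). Inhba, Itgav (-2.65) and the convertase Pcsk4 (-2.31) were among those called lower, and since Inhba was above background on 0 of 4 arrays with 10 µM Flavopiridol, no size is given for it here. The share of called genes that were higher was 55.9%, against 65.9% with median centring and 34.3 and 16.5% with the spike-in settings, which moved the median of all genes from 0.06 to -0.11 and -0.14.

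Across both cell types and both states, 10 µM Flavopiridol was compared with DMSO over 4 contexts. The 2 Th2 DMSO arrays of unclear time were taken as the controls of the 6 hr Th2 arrays, so in the Th2 differences from DMSO a drug effect and a difference between 6 and 24 hr cannot be told apart. Tgfbr2, Smad3, Tgfbr1 and Skil fell. Tgfbr2 was at -4.49 and -4.52 in unstimulated and reactivated Th1 cells and at -3.75 and -4.03 in Th2 cells with 10 µM, against -1.51, -2.24, -1.14 and -1.42 with DMSO. The 4 Flavopiridol arrays all lay below the 4 DMSO arrays. The fitted difference was -2.62 (SE 0.16, 95% interval -2.97 to -2.26), a 6.15-fold fall, with a limma adjusted p of 1.39e-05. Its second probe gave -0.40, so that the size rests on the brighter probe. Smad3, the signal carrier, was at -1.64, -1.86, -1.36 and -1.27 with the drug against -0.10, -0.17, -0.32 and -0.55 without it, again with no overlap. It fell by 1.25 (SE 0.18, limma adjusted p = 0.000704). Its second probe was not above background on any of the 4 arrays with 10 µM, and no size is given for it.

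Tgfbr1, the signalling receptor, was at -1.43, -1.54, -0.76 and -0.84 with 10 µM against -0.48, -0.47, 0.01 and -0.54 with DMSO. All 4 contexts were lower, and the fall was 0.78 (SE 0.15, limma adjusted p = 0.00294). Its second probe was likewise not above background on any of the 4 arrays with 10 µM. Skil, the corepressor, was at -2.36, -2.32, -1.85 and -1.56 against -0.36, -0.44, -0.96 and -0.66, and fell by 1.42 (SE 0.39, limma adjusted p = 0.016), and by 0.88 on its second probe. Its call was lost with the slide as a random block (adjusted p = 0.0591) and without either the reactivated Th1 DMSO array (0.0539) or the reactivated Th2 array with 10 µM (0.0546).

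Furin, Tgfb1 and Smad7 were not called after loess, and their differences varied between the contexts. Each was called lower with median centring: Furin at -3.01 (limma adjusted p = 0.0136), Tgfb1 at -1.60 (0.00343) and Smad7 at -2.24 (0.00232). Each was also called lower with both spike-in settings. The Furin difference was 0.18, -1.57, -0.83 and -5.17, with an estimate of -1.85 (SE 0.79, 95% interval -3.64 to -0.06, limma adjusted p = 0.0807). For Tgfb1 it was 0.54, -0.30, -0.24 and -1.22 (95% interval -0.88 to 0.27). Without the unstimulated Th1 DMSO array both passed, Furin at -2.51 (limma adjusted p = 0.0279) and Tgfb1 at -0.58 (0.0427). For Smad7 it was -1.87, -1.25 and -1.37 and then 0.98 in reactivated Th2 cells, and without the reactivated Th2 DMSO array Smad7 fell by 1.57 (limma adjusted p = 0.000595). Smad7 was not above background on the unstimulated Th1 array with 10 µM. Ski passed the test with a higher ratio (limma adjusted p = 0.0276), but its Cy3 signal was not well above background on any of the 4 arrays with 10 µM, so that no fold is given, and its sign turned with median centring (-0.26), with both spike-in settings (-0.85 and -0.73) and in the scanner software's own ratio (-1.06).

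Of the 8 genes, 5 were called, against 49% of all genes, with 1 called higher against 15.4% and 4 called lower against 33.6%. The 1 called higher was Ski, which passed the filter on dim probes through the DMSO arrays only. That call is therefore not a measured rise. At 1 µM Tgfbr2 (-2.29), Smad3 (-1.35) and Tgfbr1 (-0.45) fell and so did Furin (-2.38, SE 0.79, limma adjusted p = 0.0319), 4 of 8 genes against 51.8% of all genes. Between 10 and 1 µM limma called 0 of the 8 genes, with 0 at an unadjusted p under 0.05, against 1.86% of all genes. The 95% interval of that dose difference was -1.26 to 2.32 for Furin and -0.68 to 0.03 for Tgfbr2. Its error is pooled over DMSO and both doses, as it is for JQ1. It thus also holds how the drug effect varied between contexts. Context by context, Furin was higher at 10 µM in 4 of 4 (0.45 to 0.62). Tgfbr1 (-0.43 to -0.27) and Tgfbr2 (-0.64 to -0.17) were lower in 4 of 4, and Smad7 ran from -0.72 to 0.07. Markers of other cells moved as well with 10 µM: of 4 tested for B cells 0 were higher and 3 lower (median -0.79, Ms4a1 at -1.74), of the myeloid genes Csf1r was higher (2.02) and Itgam lower (-2.21), and of 2 CD8 T and NK cell genes Cd8b1 was higher (1.11). Of 2 regulatory T cell genes 1 was higher and 0 lower. Their part in the changes of the 8 genes was not tested. No Flavopiridol array shared a slide with its DMSO array, so slide and drug cannot be told apart in the comparison with DMSO. Relative to the spike-in RNA the median of all genes moved from -0.22 to -1.65, the share of calls that were higher from 31.5% to 0.2%, and all 8 genes were called lower. With median centring that share was 3.3% and 7 genes were called lower.

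Of the other pathway genes 5 were higher and 26 lower of 58 tested, where 15.4% of all genes were called higher and 33.6% lower (median -0.40, against -0.22 over all genes tested). All 4 other SMADs tested fell, Smad4, the common partner, by 1.59, Smad2 by 1.02, Smad5 by 0.65 and Smad1 by 0.38. The corepressors and coactivators had 0 higher and 5 lower of 8, with Tgif1, a SMAD corepressor, at -2.97 (SE 0.45, limma adjusted p = 0.000855). The target genes had 1 higher and 5 lower of 8, with Id2, an inhibitor of E proteins, at -3.79 and Klf10, a TGF-beta-induced zinc finger factor, at -2.72. The convertases had 0 higher and 1 lower of 5, the receptors 0 and 4 of 9, the regulators 1 and 5 of 17, and the ligands and latency genes 3 and 2 of 7. The highest were Lrrc32, which tethers latent TGF-beta at the cell surface (1.14), Ltbp3, a latent TGF-beta binding protein (1.12), and Foxp3 (1.06), but Lrrc32 and Ltbp3 turned to -0.24 and -0.23 with median centring and Foxp3 to -0.22 relative to the spike-in RNA. Foxp3 was above background on only 2 of the 4 DMSO arrays and 3 of the 4 arrays with 10 µM. Between the doses 1 pathway gene of 58 was called, Tab1, which binds and activates the kinase TAK1 (1.99 higher at 10 µM, limma adjusted p = 0.00304); among all genes 80.2% of the dose calls were higher, against 68.5% with median centring and 42.2 and 35.7% with the spike-in settings.

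**Figure D3:**
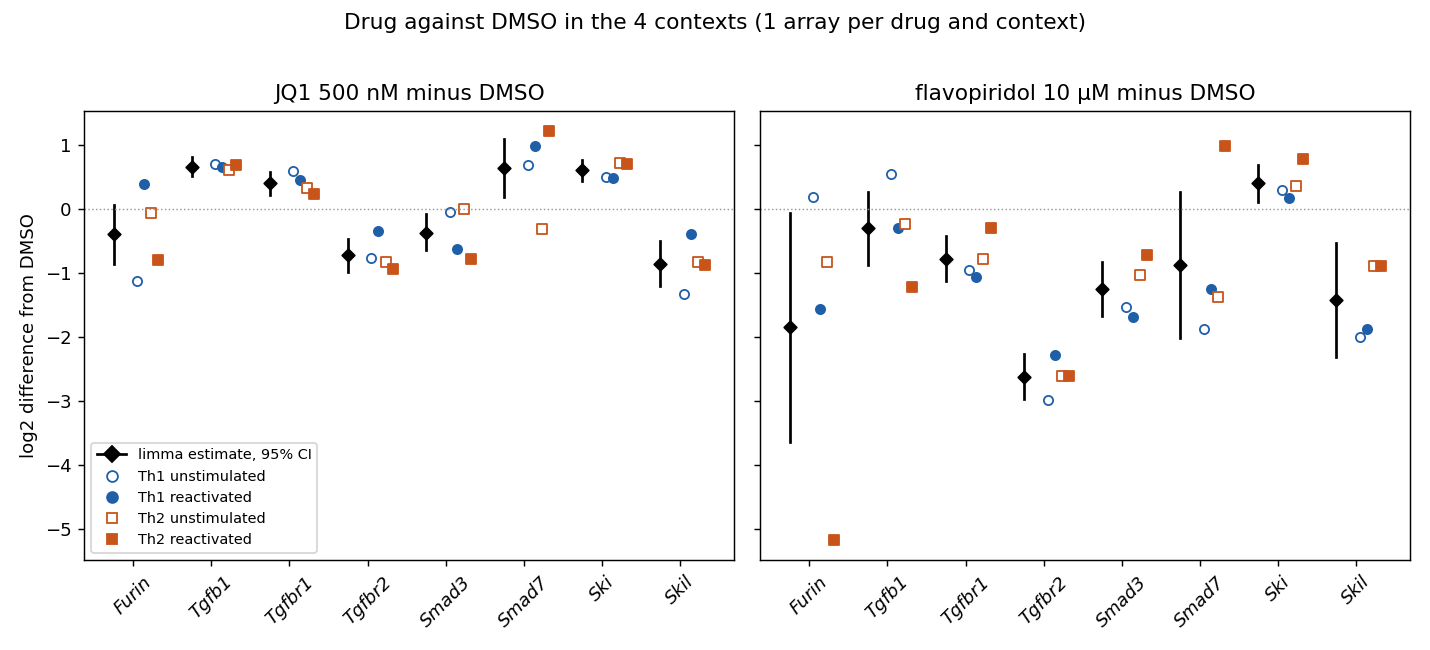
Log2 difference from DMSO (y axis) of each gene with 10 µM Flavopiridol and 500 nM JQ1, as the limma estimate with its 95% interval and the difference in each of the 4 cell contexts as points. Tgfbr2 lies at -2.62 with Flavopiridol and -0.72 with JQ1, and Tgfb1 at -0.30 and 0.66.

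JQ1 at 500 nM was compared with the same DMSO arrays over the same 4 contexts, so the results of the drugs against DMSO are not independent. The Th2 controls were again the DMSO arrays of unclear time. Tgfb1, Ski, Tgfbr1 and Smad7 rose and Skil, Tgfbr2 and Smad3 fell. Tgfb1 was at 1.18, 2.30, 1.21 and 2.65 with 500 nM in unstimulated and reactivated Th1 and Th2 cells, against 0.48, 1.65, 0.61 and 1.95 with DMSO. It was higher in 4 of 4 contexts, by 0.60 to 0.70, although the groups overlap because reactivation also raised it. The difference was 0.66 (SE 0.07, 95% interval 0.51 to 0.81), a 1.58-fold rise, with a limma adjusted p of 3.01e-05. Ski was at -0.44, -0.50, -0.16 and -0.53 against -0.94, -0.98, -0.88 and -1.23, with no overlap, and rose by 0.60 (SE 0.08, limma adjusted p = 0.00012). Its signal was near the floor, with a mean log2 Cy3 of 7.18 with 500 nM and 6.61 with DMSO. On the 10 µM Flavopiridol arrays, where it was not above background, that mean was 6.94. Tgfbr1 was higher in 4 of 4 contexts, by 0.23 to 0.59, for a rise of 0.40 (SE 0.08, limma adjusted p = 0.00224).

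Skil was at -1.69, -0.84, -1.79 and -1.53 with 500 nM against -0.36, -0.44, -0.96 and -0.66 with DMSO. It was lower in 4 of 4 contexts and fell by 0.86 (SE 0.16, limma adjusted p = 0.00126), but its second probe gave 0.03. Tgfbr2 was at -2.28, -2.58, -1.97 and -2.36 against -1.51, -2.24, -1.14 and -1.42, with differences of -0.94 to -0.34 that were lower in 4 of 4 contexts. It fell by 0.72 (SE 0.12, limma adjusted p = 0.000563), and its second probe gave 0.01. Smad7 rose by 0.64 (SE 0.20, limma adjusted p = 0.0238), with differences of 0.68, 0.98 and 1.21 in 3 contexts and -0.31 in unstimulated Th2 cells. Smad3 fell by 0.37 (SE 0.13, limma adjusted p = 0.0388). The Smad7 call was lost without either Th1 DMSO array, the reactivated Th2 DMSO array or either reactivated array with 500 nM (adjusted p = 0.0657 to 0.0884), and the Smad3 call without any 1 of the 6 reactivated arrays or of the 2 unstimulated arrays with 50 nM (0.0512 to 0.141). The JQ1 arrays shared a slide with their DMSO arrays in Th1 but not in Th2 cells. With the slide as a fixed block the calls of Smad3 (-0.34, adjusted p = 0.188) and Smad7 (0.76, 0.0644) were lost, and in Th1 arrays alone those of Tgfbr2 (-0.56, 0.0708), Skil (-0.87, 0.0713) and Smad3 (-0.34, 0.2). Of the markers of other cells, 3 of 4 tested for B cells were lower with 500 nM JQ1 and 0 higher (median -0.81, Ms4a1 at -1.29), both CD8 T and NK cell genes were lower (Cd8a at -0.53 and Cd8b1 at -0.33), and of 3 myeloid genes Csf1r was higher (0.47). Of 2 regulatory T cell genes 1 was lower and 0 higher, and the 1 platelet gene tested was higher (0.38). Their part in these changes was not tested.

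For Furin the sign of the JQ1 difference varied between contexts after loess, and the call depended on the centring. Its difference from DMSO was -1.13 in unstimulated and 0.39 in reactivated Th1 cells and -0.06 and -0.80 in Th2 cells (-0.40, SE 0.21, 95% interval -0.86 to 0.06, limma adjusted p = 0.135), and it was called only without the reactivated Th1 array with 500 nM (-0.65, adjusted p = 0.00776) among the arrays left out in turn. It was called lower with median centring (-0.75, adjusted p = 0.00161) and with both spike-in settings (-1.01, 0.00157, and -0.97, 0.0116). The Th1 pairs at 24 hr, which did not enter the fit, gave -1.36 and 0.38, close to the 6 hr values. In Th1 cells, then, 500 nM JQ1 went with a lower unstimulated and a slightly higher reactivated Furin value at both times. The reactivated direction depends on the centring. With median centring the reactivated Furin value was 3.74 with JQ1 against 3.99 with DMSO at 6 hr and 4.12 against 4.21 at 24 hr, and with the spike-in shift it was 4.22 against 5.27 at 6 hr and 5.31 against 5.16 at 24 hr. The other genes at 24 hr in Th1 cells, unstimulated and reactivated, gave 0.42 and 0.77 for Tgfb1, 0.25 and 0.81 for Tgfbr1, 0.89 and 0.86 for Smad7 and 0.85 and 0.88 for Ski, all in the direction of the 6 hr calls. Tgfbr2 (-0.09 and 0.16) and Skil (-0.01 and 0.34) lay near or above 0 at 24 hr, where at 6 hr the same Th1 differences were -0.77 and -0.34 for Tgfbr2 and -1.33 and -0.40 for Skil. There was 1 array per time and the difference between the times was not tested.

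Of the 8 genes, 7 were called with 500 nM JQ1, against 47.5% of all genes, with 4 higher against 17.7% and 3 lower against 29.8%. At 50 nM limma called 0 of 8, with 1 at an unadjusted p under 0.05 (Tgfb1, 0.25, 95% interval 0.10 to 0.39), against 0.302% of all genes. Between the doses, whose arrays share a slide within each cell type, 6 of 8 were called, against 31.2% of all genes. Tgfb1 (0.41), Tgfbr1 (0.35), Smad7 (0.67) and Ski (0.46) were higher with 500 nM, 4 of 8 against 10.7%, and Tgfbr2 (-0.57) and Skil (-0.53) were lower, 2 of 8 against 20.5%. Leaving out single arrays ended the dose calls of Smad7 (7 of the 8 JQ1 arrays, adjusted p up to 0.106) and Skil (5 of the 8, up to 0.101). With the mean over probes the dose calls of Tgfbr2 (-0.26, adjusted p = 0.111) and Skil (-0.23, adjusted p = 0.258) were lost, and the second probes gave 0.06 and 0.07. Furin was called lower between the doses with median centring (-0.56, adjusted p = 0.0167) and with both spike-in settings (-0.88, 0.00848, and -0.85, 0.0347). So was Smad3, at -0.51 (limma adjusted p = 0.0319), -0.83 (0.0133) and -0.81 (0.0429). Median centring ended the dose calls of Smad7 (0.40, 0.0878), Tgfb1 (0.13, 0.438) and Tgfbr1 (0.10, 0.575). The rises depend on the centring. With median centring the differences of 500 nM JQ1 from DMSO were not called for Tgfbr1 (0.07, limma adjusted p = 0.655) and Smad7 (0.29, 0.17). Relative to the spike-in RNA the differences of 500 nM JQ1 from DMSO were 0.04 for Tgfb1, -0.19 for Tgfbr1, 0.03 for Smad7 and 0.13 for Ski, none of them called. With that centring the median of all genes was -0.54 in place of -0.07, and the share of calls that were higher was 2.1% in place of 37.3% (11.3% with median centring), and 0.3% in place of 34.4% between the doses (8.1% with median centring), where the median moved from -0.06 to -0.55.

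Among the other pathway genes 16 were higher and 12 lower of 64 tested with 500 nM (median 0.00, against -0.07 over all genes tested), and 10 higher and 7 lower between the doses. Of all genes 17.7% were called higher and 29.8% lower with 500 nM, and 10.7% and 20.5% between the doses. The target genes had 5 higher and 0 lower of 8, led by Id1 (0.86, SE 0.16) and Id3 (0.84, SE 0.13), inhibitors of E proteins with limma adjusted p of 0.00154 and 0.000547. The other SMADs split, with Smad1 (0.30) and Smad4 (0.23) higher and Smad5 (-0.60) and Smad2 (-0.25) lower. The regulators had 5 higher and 2 lower of 18, with the deubiquitinase Usp9x at 0.65 and Tab1 at -0.72. The receptors had 1 higher and 1 lower of 10, Acvr2b at -1.09, and the convertases 1 and 1 of 6, Pcsk7 at 0.51 and Pcsk4 at -0.91. The corepressors and coactivators had 1 higher and 3 lower of 8, and the ligands and latency genes 1 and 3 of 9. Between the doses Id3 (0.86), Id1 (0.58) and Smurf2 (0.48) were the highest and Acvr2b (-0.78), Tab1 (-0.63) and Tgif1 (-0.51) the lowest.

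The JQ1 effect was compared between reactivated and unstimulated cells, and 1 of the 8 genes was called, against 10.1% of all genes. Smad3 with 500 nM JQ1 differed from DMSO by -0.05 and 0.00 in unstimulated Th1 and Th2 cells and by -0.62 and -0.79 in reactivated cells. The difference between the states was -0.68 (SE 0.14, 95% interval -0.99 to -0.37, limma adjusted p = 0.0159), and at 24 hr in Th1 cells the values were -0.05 and -0.50. Its second probe gave -0.09, and the call was lost with the mean over both probes (-0.39, adjusted p = 0.153), in the scanner software's ratio (0.0594) and without any 1 of 4 unstimulated or DMSO arrays. The estimate for Smad7 was 0.91 (95% interval 0.31 to 1.52, limma adjusted p = 0.0613), and it passed without the unstimulated Th1 array of DMSO (1.29, 0.0238) or of 500 nM JQ1 (1.28, 0.0129). Of the other pathway genes 5 were higher and 4 lower of 64, with Acvrl1 (1.36), Tgfb3 (0.87) and Id2 (0.79) the highest and Pcsk4 (-1.58), the cell cycle inhibitor Cdkn2b (-0.85) and Strap (-0.81) the lowest. The share of calls that were higher was 44.5%, against 22.5% with median centring and 0.1% relative to the spike-in RNA, where the median of all genes moved from -0.01 to -1.03.

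Neither drug effect was called different between Th1 and Th2 cells for these genes. For Flavopiridol limma called 0 of 8, with 1 at an unadjusted p under 0.05 (Smad3, -0.74, 95% interval -1.25 to -0.22), against 0.0161% of all genes. For JQ1 it called 0 of 8, with 0 at an unadjusted p under 0.05, against 0% of all genes. The intervals were wide for Furin, from -1.42 to 6.03 with Flavopiridol and from -1.02 to 1.13 with JQ1. Relative to the spike-in RNA the median of all genes for Flavopiridol moved from -0.02 to 0.60.

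The drugs were also set against each other directly, 10 µM Flavopiridol against 500 nM JQ1 at 6 hr, which needs no shared DMSO array. Tgfbr2 (-1.90, SE 0.16, limma adjusted p = 1.86e-07), Smad7 (-1.52, SE 0.49, 0.0158), Tgfbr1 (-1.17, SE 0.16, 2.21e-05), Tgfb1 (-0.96, SE 0.25, 0.00379) and Smad3 (-0.88, SE 0.22, 0.00301) were lower with Flavopiridol. The second Tgfbr2 probe gave -0.41, so that the size rests on the brighter probe. The difference for Furin was -1.45 (95% interval -3.19 to 0.29; called lower with median centring at -2.26, adjusted p = 0.037, and with both spike-in settings) and for Skil -0.56 (-1.37 to 0.25). Skil was called lower with median centring (-1.57, adjusted p = 0.000382), with both spike-in settings (-1.90, 6.03e-05, and -1.12, 0.00961) and in Th1 arrays alone (-1.07, 0.0216). Beside these, Csf1r (1.54), Cd8b1 (1.44) and Cd8a (1.03) were higher and Itgam (-2.05) and Ms4a1 (-0.45) lower with Flavopiridol. Ski was not called, and no size is given for it, since it was above background on 0 of the 4 arrays with 10 µM. Thus 5 of 8 genes were called, against 56.9% of all genes. The 5 were lower, against 34% of all genes, and 0 were higher, against 22.9%. In neither cell type did the drugs share a slide, and the Tgfb1 call was lost with the slide as a fixed block (-0.58, adjusted p = 0.261) and in Th1 arrays alone (-0.55, adjusted p = 0.146). The Smad7 call was lost without either Th1 array with 500 nM JQ1 (0.0555 and 0.0543) or the unstimulated Th1 array with 10 µM Flavopiridol (0.059). Of the other pathway genes 11 were higher and 31 lower of 64, among them 0 and 3 of 5 other SMADs, 1 and 6 of 8 corepressors and coactivators, and 1 and 6 of 8 target genes. Id2 (-3.72) and Klf10 (-3.10) were the lowest, and Pcsk4 (2.02), Lrrc32 (1.59) and Ltbp3 (1.03) the highest, with Ltbp3 at -0.02 after median centring. The share of calls that were higher was 40.2%, against 11.4% with median centring and 3.1% relative to the spike-in RNA, with medians of all genes of -0.12, -0.62 and -0.94.

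**Figure D4:**
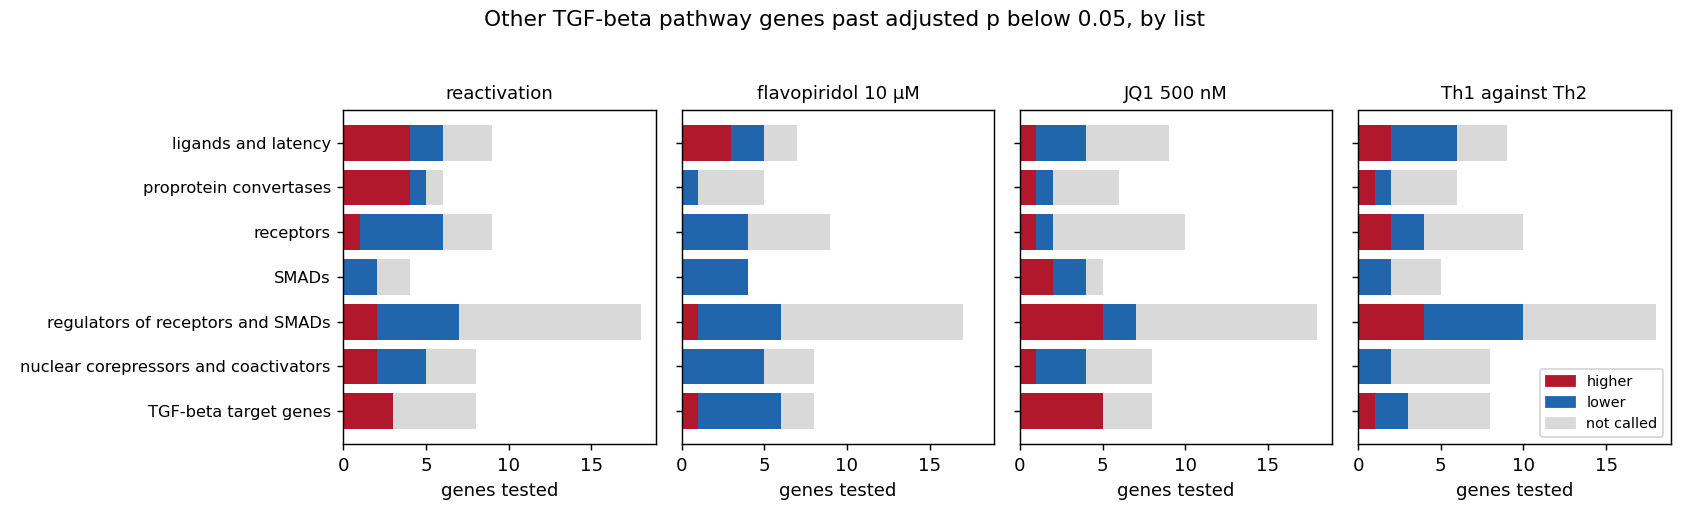
Number of genes called higher and lower (x axis) in each list of other TGF-beta pathway genes, by comparison. With 10 µM Flavopiridol 5 genes were higher and 26 lower of 58 tested, and on reactivation 16 were higher and 18 lower of 62.

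Among the 8 genes Furin differed most between Th1 and Th2 cells. Over 10 conditions with 1 array of each cell type it was higher in Th1 cells in 10 of 10, by 2.74 on the log2 scale (SE 0.38, 95% interval 1.91 to 3.58, limma adjusted p = 0.000228). In unstimulated DMSO and JQ1 cells the Th1 minus Th2 difference was 2.03 to 3.10 (3 conditions), and in reactivated ones 0.57 to 1.75. In the 4 Flavopiridol conditions it was 4.08 to 4.18, with Th1 arrays at 2.49 to 3.16 and Th2 arrays at -1.59 to -1.0. The Furin call held under all 33 alternatives run. Tgfbr2 (-0.51, SE 0.10, limma adjusted p = 0.00165) and Tgfbr1 (-0.33, SE 0.11, limma adjusted p = 0.0412) were lower in Th1 cells. Tgfbr1 was lower in Th1 cells in the unstimulated DMSO and JQ1 conditions (-0.49 to -0.20) and the Flavopiridol conditions (-0.82 to -0.65), but higher in the 3 reactivated DMSO and JQ1 conditions (0.07 to 0.29). Tgfbr2 ran from -0.37 to 0.12, from -0.87 to -0.49 and from -0.82 to -0.22 in these 3 classes. The second Tgfbr2 probe gave 0.13, the other direction, and with the mean over probes the Tgfbr2 call was lost (-0.19, adjusted p = 0.145). The Tgfbr1 call was lost in 21 of 33 alternatives and that of Tgfbr2 in 6 of 33. Both spike-in settings ended both calls, and median centring that of Tgfbr2 (-0.32, limma adjusted p = 0.0819). In all, 3 of 8 genes were called, against 35.7% of all genes, with 1 higher against 17.2% and 2 lower against 18.4%. The Th1 and Th2 arrays shared a slide for DMSO (6 hr in Th1) and for no drug, and there Furin differed by 3.10 unstimulated and 0.57 reactivated. Markers of other cells differed as well. Of 4 tested for B cells 3 were lower in Th1 cells, among them Ms4a1 (-2.24) and Cd79a (-0.38). Of 3 myeloid genes Csf1r (-0.32) and Itgam (-0.39) were lower, and both CD8 T and NK cell genes tested, Cd8a (1.35) and Cd8b1 (0.35), were higher. Of 2 regulatory T cell genes 1 was higher and 0 lower. The part of these markers in these differences was not tested.

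Of the other pathway genes 10 were higher in Th1 and 19 in Th2 cells, of 64 tested (median -0.11, against -0.01 over all genes tested). Of all genes 17.2% were called higher in Th1 and 18.4% in Th2 cells. Acvr1, an activin and BMP receptor, was the highest in Th1 cells (0.88, SE 0.07, limma adjusted p = 4.26e-06), followed by Strap (0.67), which binds SMAD7, and the cell cycle inhibitor Cdkn1a (0.55). Id3 (-0.91), the ubiquitin ligase Nedd4l (-0.90) and Nrros, which holds latent TGF-beta (-0.75), were the lowest. Receptors had 2 higher and 2 lower of 10, other SMADs 0 and 2 of 5, regulators 4 and 6 of 18, and ligands and latency genes 2 and 4 of 9. The share of calls that were higher was 48.3%, against 80.8% with the spike-in shift, which moved the median of all genes from -0.01 to 0.21.

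As a description of the whole pattern, the genes most like each of the 8 were sought among 11821 genes with Cy3 above background on at least 12 arrays, by Pearson r over the 24 arrays, which share the reference, the slides and the treatments. Furin ran closest to the chemokine gene Ccl5 (r = 0.97), Ehd1 (0.96) and Eloc (0.96). Tgfb1 ran closest to Sin3b (0.93), Abhd2 (0.93) and Dhx37 (0.93), and Tgfbr1 to Smg1 (0.96), Rc3h1 (0.95) and Avl9 (0.94). For Tgfbr2 the nearest were Mon1b (0.97), Ctcf (0.96) and Exo5 (0.96), and for Smad3 they were Trim8 (0.96), Zfpm1 (0.94) and Ahnak (0.93). Smad7 was nearest to Fryl (0.92), Tspoap1 (0.90) and Arid1b (0.90), Ski to Hid1 (0.89), Uros (0.88) and Dcaf6 (0.86), and Skil to Shroom1 (0.86), Zglp1 (0.85) and Banp (0.84). Within the 8 genes the closest were Tgfbr2 and Smad3 (r = 0.82) and Furin and Tgfb1 (r = 0.76).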

How the data were processed

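The arrays were Agilent mouse designs on 3 slides, each read in both dyes with spike-in RNA added, and the authors prepared the probes from total RNA with a Low Input Quick Amp kit. Per the file headers, the deposited intensities are median pixel signals of spots and of their local background, and the log10 ratios of red over green are those of the scanner software (Agilent Feature Extraction, version 10.7.1.1). The deposited series table holds log2 ratios of 34710 probes that the authors normalized by a method not given in the sources used here.

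Signals were corrected with normexp (offset 50) and loess in limma 3.58.1 (R 4.3.3), on 62976 spots including controls, and control and outlier spots were then left out. Median pixel signals were used in place of the mean signals that the plan named. Of 55681 probes 26437 carried 1 gene symbol, and each of the 20028 genes was represented by its brightest probe. Genes whose Cy3 signal passed the software's background flag on 3 or more arrays of a fit were tested with lmFit and eBayes, with the cell context, pair or condition as a block, and called at a Benjamini-Hochberg adjusted p under 0.05 over all genes tested. The depth of an array is not a count of reads, and the single array per condition limits the precision. No column of another sample was present (0 unused). The fits were tested on simulated data.

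The genes named were the 8 pathway genes, up to 3 called genes each way per comparison from 7 lists of other pathway genes, and the 3 genes most correlated with each of the 8. Some named genes and markers are not reported here. The members and lists were chosen with earlier results of these data known. Alternatives were no background correction, median and spike-in centring (spike-in RNA set to 0, or loess values shifted by it), the software's ratio, the deposited table, Cy3 alone, no filter, the mean over probes, no block, slide blocks, the lower dose, fewer arrays and each array left out in turn. Slide as a fixed block and Th1 arrays alone were chosen after seeing the data.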

Additional observations from a re-analysis of the deposited data

Results flagged for a closer look

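The difference of a drug effect between reactivated and unstimulated cells passed the test for 1 of the 8 genes with JQ1, where 10.1% of all genes were called, and for 0 with Flavopiridol, where 15.8% were. Among the other pathway genes 3 were called higher and 4 lower of 58 with Flavopiridol, where 8.87% of all genes were higher and 6.98% lower. With JQ1 5 were higher and 4 lower of 64, where 4.5% of all genes were higher and 5.62% lower. Up to 3 each way are named here. Smad3 fell with 500 nM JQ1 in reactivated cells beyond its change in unstimulated cells, by -0.68 on the log2 scale (SE 0.14, limma adjusted p = 0.0159), in the same direction in both cell types. The call was lost in the mean over both Smad3 probes (-0.39, adjusted p = 0.153).

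With 10 µM Flavopiridol the difference between the states was 2.02 for Acvr2b, 1.34 for Tgfbr3 and 1.25 for Acvrl1, all receptors. It was -3.70 for Inhba, -2.65 for Itgav and -2.31 for Pcsk4, and Inhba was above background on 0 of the 4 arrays with 10 µM, so that its fitted value is not a measured size.

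With 500 nM JQ1 the difference between the states was 1.36 for Acvrl1, 0.87 for Tgfb3 and 0.79 for Id2. It was -1.58 for Pcsk4, -0.85 for Cdkn2b and -0.81 for Strap. Tgfb3 turned to -0.07 and Id2 to -0.36 relative to the spike-in RNA.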

How the results depend on the processing

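The fits were blocked by pair, cell context or condition. By replicate number no paired analysis was possible because the labels give none. Of 1110 recomputed values of the 8 genes 969 kept their side of the threshold and their direction, 79 lost the call, 45 gained one and 17 turned, with a turn counted only where a called value was involved, and with single arrays left out the numbers were 1069, 56, 11 and 0 of 1136. For the other pathway genes named they were 508, 104, 0 and 16 of 628, and 586, 62, 0 and 0 of 648. Slide as a random block was not run for reactivation, where the pair already holds the slide. The cause of each change below was not tested. With 10 µM Flavopiridol 5 of the 8 genes were called, 8 with spike-in centring, 8 with the spike-in shift, 3 with slide as a random block, and 3 to 7 with 1 array left out (3 without the reactivated Th2 array with 10 µM). Ski turned to -0.26 (median centring), -0.85 and -0.73 (spike-in centring and shift) and -1.06 (software's ratio), Lrrc32 to -0.24 (median) and -0.83 (spike-in), Ltbp3 to -0.23, -0.82 and 0.00 (shift), and Foxp3 to -0.22 and -0.07. With 500 nM JQ1 7 were called, 4 with spike-in centring, 4 with the shift, 1 with no block, 5 with slide as a fixed block, 0 at 50 nM and 4 in Th1 arrays alone. Tgfbr1 turned to -0.19 and -0.17, and Id3 to -0.02 and Smad7 to -0.03 at 50 nM. Between the JQ1 doses 6 were called, 0 with no block and 1 in Th1 arrays alone. With spike-in centring and shift Ski turned to -0.02 and -0.12, Smurf2 to -0.10 and -0.09, Tgfb1 to -0.20 and -0.16, and Tgfbr1 to -0.23 and -0.22. For Flavopiridol by reactivation 0 were called, 2 with slide as a random block and 0 to 3 with 1 array left out (3 without the reactivated Th1 DMSO array of 6 hr). For JQ1 by reactivation 1 was called, 5 with spike-in centring, 5 with the shift, 0 with the software's ratio, the mean over probes, no block or 8 arrays, and 0 to 2 with 1 array left out (0 without the unstimulated or reactivated Th2 DMSO array or the unstimulated Th2 array with 500 nM, 2 without the unstimulated Th1 array with 500 nM). With spike-in centring and shift Id2 turned to -0.36 and -0.40, Tgfb1 to -1.11 and -1.17, Tgfb3 to -0.07 and -0.32, and Tgfbr2 to -0.99 and -1.03. For Flavopiridol against JQ1 5 were called, 8 with median centring and 8 with spike-in centring, and Ltbp3 turned to -0.02 and -0.35. For Th1 against Th2 3 were called, and 1 with spike-in centring, the shift, no block or slide as a fixed block. With median and spike-in centring the DMSO means against naive cells were -0.92 and 0.22 for Tgfbr1, -2.27 and -1.13 for Tgfbr2, -0.63 and 0.51 for Smad3, -1.40 and -0.26 for Ski, and -1.19 and -0.05 for Skil.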
